A study of Mus musculus with 48 samples.

Results

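The comparison concerned the hippocampus of adult female C57BL6/J mice labelled 5-Htt+/+ (wildtype at the serotonin transporter gene), 3 months old. It set 8 prenatally stressed (PS) offspring labelled PS-resilient, called socially unaffected (SU) in the study, against 8 unstressed controls, which makes 16 of the 48 libraries of the series. Members were taken from the sample labels alone. The dams of the SU animals underwent restraint 3 times daily between embryonic days 13 and 17, whereas control dams were left undisturbed. All offspring came from wildtype dams and 5-Htt+/- sires, so that both groups shared this breeding. SU animals were PS animals whose time in the social chamber of a 3-chamber sociability test lay above a cutoff, and all animals went through behavioural testing and a restraint challenge with blood sampling before sacrifice. The other libraries were 8 socially affected (SA, labelled PS-susceptible) 5-Htt+/+ animals and, with 5-Htt+/-, 7 controls, 9 SU and 8 SA animals. The hippocampi of both hemispheres were pooled within an animal, and litter is not given in the labels, so littermates may be present in a group.

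The serotonin transporter takes serotonin back up into the neurons that release it, and stress hormones reach the hippocampus through the glucocorticoid and mineralocorticoid receptors, which act as transcription factors. In this tissue, whole-hippocampus RNA mixes granule cells of the dentate gyrus, pyramidal cells, interneurons, glia and vessels. In such bulk RNA, fewer cells of a type and less RNA per cell cannot be told apart. A resilient animal is one exposed to the stress that does not show the behavioural change under study.

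Total counts ranged from 19252730 to 37465332 in the control libraries and from 16594116 to 34810835 in the SU libraries. In exact permutation tests (12870 arrangements, two-sided, Benjamini-Hochberg adjusted over 4 measures), total count (p = 0.301, adjusted p = 0.629), mitochondrial share of counts (5.10% ± 0.498 in controls and 5.17% ± 0.293 in SU, SD, n = 8 each; p = 0.722, adjusted p = 0.722), the first principal component (p = 0.314, adjusted p = 0.629) and the level of choroid plexus markers (p = 0.564, adjusted p = 0.722) did not pass. The markers of choroid plexus, the tissue of the ventricles that makes cerebrospinal fluid, exceeded a mean log2 level of 2 in 3 control and 2 SU libraries. Slc6a4, the gene of the serotonin transporter, had 0 to 6 reads in the 24 libraries labelled 5-Htt+/+ and 207 to 532 reads in the 24 libraries labelled 5-Htt+/-, so the labelled genotypes did not overlap, with more reads under the label with 1 targeted copy. The counts do not show where in the gene these reads fall, and whether they stem from the targeted allele or from exchanged genotype labels was not tested. Genotypes are therefore named as labelled throughout.

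The transcripts on which the called differences turn are unnamed gene models. 5 of the 6 lie in intron 1 of Fam155a on chromosome 8, and the other, Gm10801 on chromosome 2, shares sequence with Gm10800 next to it and with Gm26870 on chromosome 9. The stretches below, from the GENCODE M21 transcripts (GRCm38), show this sharing. Capitals mark the run of 86 bases common to Gm10801 and Gm10800, and then the run of 72 bases of Gm10801 that is present as its reverse complement in Gm26870.
Gm10801, bases 1 to 124: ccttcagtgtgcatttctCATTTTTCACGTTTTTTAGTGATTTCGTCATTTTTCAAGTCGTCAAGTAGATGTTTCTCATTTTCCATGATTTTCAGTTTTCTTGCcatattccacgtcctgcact
Gm10800, bases 386 to 511: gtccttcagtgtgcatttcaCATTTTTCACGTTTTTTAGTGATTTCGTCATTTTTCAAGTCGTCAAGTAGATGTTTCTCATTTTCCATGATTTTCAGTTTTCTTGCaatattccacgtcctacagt
Gm10801, bases 143 to 254: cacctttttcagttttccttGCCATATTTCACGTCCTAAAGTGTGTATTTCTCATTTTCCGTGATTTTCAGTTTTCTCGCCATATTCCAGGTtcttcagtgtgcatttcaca
Gm26870, bases 785 to 896: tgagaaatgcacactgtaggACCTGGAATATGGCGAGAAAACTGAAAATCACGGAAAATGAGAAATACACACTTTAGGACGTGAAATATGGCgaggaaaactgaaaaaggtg
Sequence of this kind is known, as background, from the major satellite repeat of mouse pericentromeric heterochromatin. By contrast, 4930435N07Rik, the leading transcript of the chromosome 8 group, shares no stretch of 50 bases with a transcript of another gene. Its first 120 bases are given so that it can be located.
4930435N07Rik, bases 1 to 120: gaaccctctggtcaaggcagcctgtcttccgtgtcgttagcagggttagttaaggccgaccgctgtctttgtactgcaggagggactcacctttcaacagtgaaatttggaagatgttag

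Which genes differed between SU and control 5-Htt+/+ hippocampus was asked first. Of 31208 genes tested with edgeR's quasi-likelihood test, 6 had an adjusted p below 0.05 (0.0192% of those tested), 1 higher and 5 lower in SU. The count depended on the test: the earlier quasi-likelihood form of edgeR and its likelihood ratio test each called 1 gene, 4930435N07Rik. DESeq2 called 3. A filter of 10 reads in 8 or more libraries left 0 calls. None of the 6 was tested under that filter, since each reached 10 reads in fewer libraries. The 5 lower ones were 4930435N07Rik (log2 fold change -4.06, adjusted p = 1.39e-05), Gm44801 (-3.88, adjusted p = 0.00382), Gm44800 (-3.77, adjusted p = 0.00881), Gm44799 (-3.11, adjusted p = 0.0381) and Gm44797 (-3.15, adjusted p = 0.0381), all of the biotype TEC, a class of gene models that still await experimental evidence. The higher one was Gm10801 (log2 fold change 5.93, adjusted p = 0.0272). No SU library reached 5 reads on any of the 5 lower transcripts. Apart from Gm44799, which reached 5 reads in 4 further libraries, these transcripts passed the filter (5 reads in 3 libraries) only with the 5-Htt+/+ controls counted in, so they had to be lower in SU and their direction is no support. None of the 6 is a characterised gene, and no gene of at least 1 CPM (reads scaled to the library total) on average was called apart from Gm10801. The control libraries 3, 4 and 6 carried the reads of 4 of the chromosome 8 transcripts, and SU libraries 3 and 6 those of Gm10801. With controls 3, 4 and 6 left out together 1 gene was called, and with SU 3 and 6 left out together 1 gene was called. In both cases it was 4930435N07Rik.

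4930435N07Rik (chr8:9459092-9461218) had 19, 2, 0, 33, 33, 25, 0 and 0 reads in controls 1 to 8, and 0, 1, 1, 0, 2, 1, 0 and 0 reads in SU libraries 1 to 8. 4 controls thus stood above all SU libraries, and the other 4, with 0 to 2 reads, had counts in the SU range. The level was 0.505 ± 0.519 CPM in controls and 0.0273 ± 0.0324 CPM in SU (SD, n = 8 each), and the 95% interval of the log2 fold change ran from -5.52 to -3.08. SA animals had 0.0496 ± 0.0416 CPM, and the difference between SU and SA was not called (log2 fold change -0.78). The unstressed 5-Htt+/- controls were as low, at 0.0441 ± 0.0213 CPM (n = 7). The 5-Htt+/- SU animals had 0.0484 ± 0.0250 CPM (n = 9) and the 5-Htt+/- SA animals 0.0686 ± 0.0678 CPM (n = 8).

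**Figure D1:**
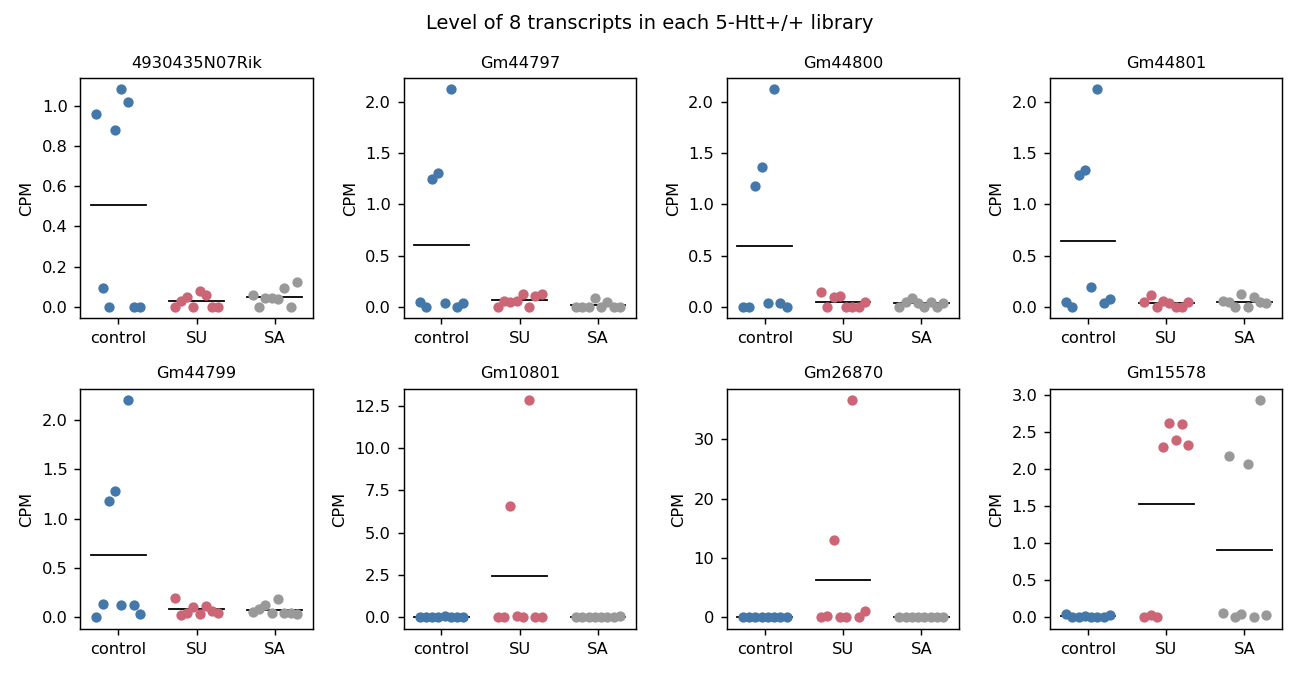
Level in CPM (vertical axis) of the 6 called transcripts, Gm26870 and Gm15578 in each 5-Htt+/+ library of the control, SU and SA groups, 8 libraries each; points are libraries and lines are means. In the 5 chromosome 8 transcripts 3 or 4 controls stand apart from all other libraries, and in Gm10801 SU libraries 3 and 6 do.

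The other 4 called transcripts, Gm44797, Gm44800, Gm44801 and Gm44799, are neighbours between 9595109 and 9659449 on chromosome 8 and were on in the same libraries. Together with Gm44798, which lies between them and had an adjusted p of 0.147, they make a run of 5 models of 1202 to 2410 bases. Control 3 had 34 to 37 reads on each of the 5, control 4 had 48 to 51 and control 6 had 52 to 54. In every SU library each of them had 0 to 5 reads. In these 3 libraries the number of reads was therefore nearly the same on each transcript of the run, whatever its length. Control 7 departed from this, with 35 reads on Gm44798 and 0 to 3 on the other models of the run. Outside these groups, control 5 of the 5-Htt+/- genotype had 32 to 40 reads on each model of the run. The reads did not stop at the same place in each library: control 3 and control 6 also had 39 and 59 reads on 2900027M19Rik next to the run, where control 4 had 3. At the other end, n-R5s95 had 48 and 51 reads in controls 4 and 6 and 0 in control 3. Gm44541 had 50 and 44 reads in controls 4 and 8 and 34 and 15 reads in SU libraries 1 and 6. All 11 models of this stretch lie inside intron 1 of Fam155a, which spans 9233106 to 9770076. Fam155a, an auxiliary protein of the sodium leak channel of neurons, did not pass the test itself (87.5 ± 6.21 CPM in controls and 89.5 ± 3.58 in SU; log2 fold change 0.032, 95% interval -0.060 to 0.12, turning to -0.0067 without the libraries rich in choroid plexus). The 4 calls thus rest on reads in the same 3 libraries. The sources used here do not say how reads that span a gap were counted, and the part of the counting rule in these intronic counts was not tested.

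**Figure D2:**
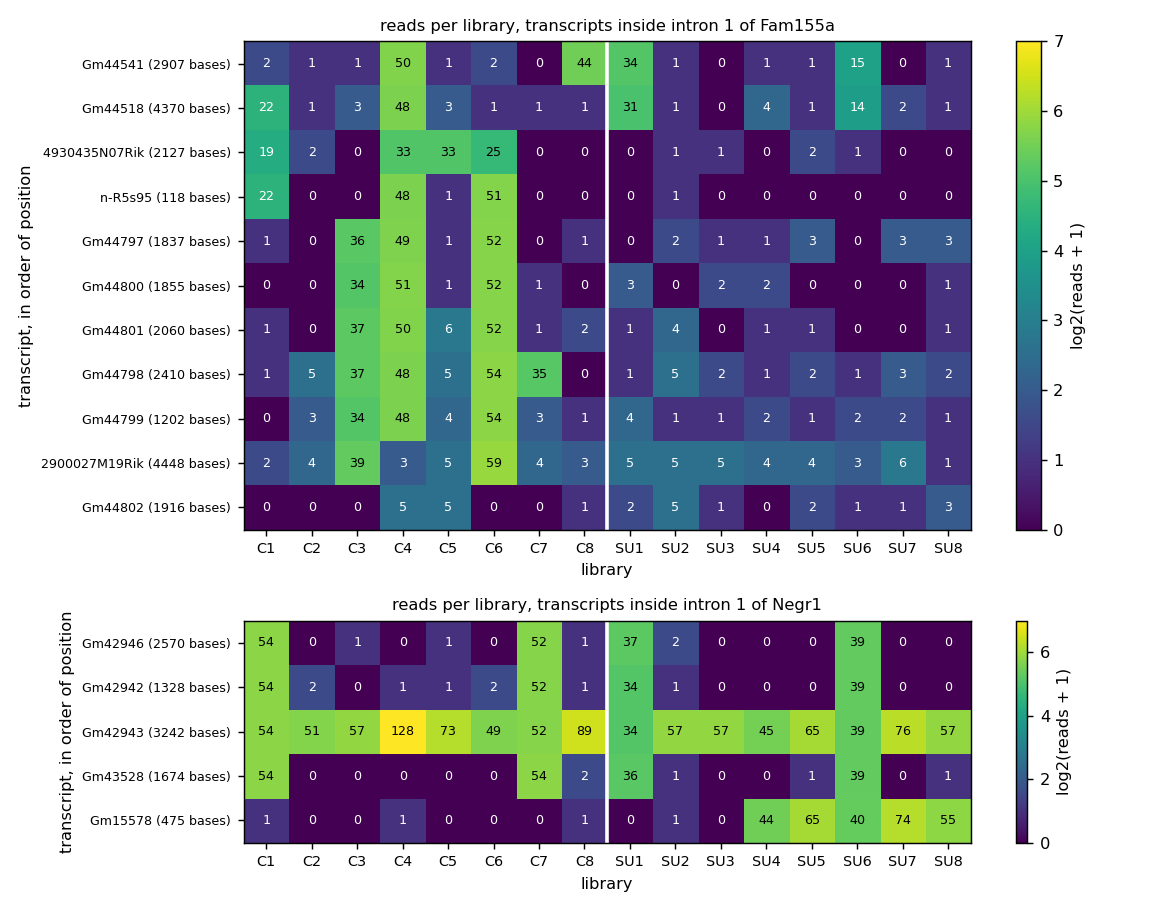
Reads per library (numbers, coloured by log2(reads + 1)) for the transcripts inside intron 1 of Fam155a on chromosome 8 (upper panel) and of Negr1 on chromosome 3 (lower panel), ordered by position, for controls (C1 to C8) and SU animals (SU1 to SU8). For the run of 5 models on chromosome 8, Gm44797 to Gm44799, counts are nearly equal within controls 3, 4 and 6, such as 52 to 54 in control 6, and 0 to 5 in the SU libraries, while control 7 has 35 reads on Gm44798 alone of the run.

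Gm10801 (chr2:98662237-98664083) had 136 and 214 reads in SU libraries 3 and 6 and at most 2 reads in each of the other 14 libraries. This gave 2.45 ± 4.78 CPM in SU and 0.0303 ± 0.0264 CPM in controls. Gm10800 had 73 and 86 reads in the same 2 libraries and 0 in the other 14. Gm26870 had 270 and 610 reads there, 9 and 26 reads in SU libraries 2 and 8, and 0 in all controls. Against a floor of 3 reads over the 8 controls, Gm26870 was at least 452-fold higher and Gm10800 at least 77-fold higher in SU, figures set by 2 libraries. Neither was called by edgeR (adjusted p = 0.466 and 0.892), whereas DESeq2 called both (adjusted p = 3.01e-09 and 0.000749). Of the distinct stretches of 50 bases, 17.1% in Gm10801, 27.4% in Gm10800 and 67% in Gm26870 occur in other genes, so reads on these shared stretches cannot be assigned to 1 locus. Summed over the 13 genes that share such stretches, SU 3 had 479 reads, SU 6 had 910, and no control had more than 2. High sums were also found outside these groups, with 169 and 391 reads in 2 controls and 297 in 1 SU animal of the 5-Htt+/- genotype.

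Transcripts that were on or off by library were looked for in the whole table after these values had been seen. A transcript counted when each of the 48 libraries had either at most 7 or at least 14 reads and 3 to 40 libraries were on. This held for 92 transcripts (0.295% of those tested), 36 of them TEC models and 3 protein-coding, and all 6 called transcripts were among them. 15 of the 92 had an unadjusted p below 0.05, where 3.37% of all genes tested did so. The 15 include the 6 calls that prompted the search, and several are neighbours in intron 1 of Fam155a with reads in the same libraries. Some passed the filter only through the controls in which they were high, so this comparison is no independent support. Gm15578, also among the 15, lay outside the rule for named genes. It is a pseudogene in intron 1 of Negr1 on chromosome 3, and Negr1 encodes an adhesion molecule of neurons. Gm15578 had 44, 65, 40, 74 and 55 reads in SU libraries 4 to 8, 0 or 1 read in SU libraries 1 to 3, and 0 or 1 read in every control. It was on in 17 of the 48 libraries and so not in SU alone. SA libraries of the 5-Htt+/+ genotype had 49, 54 and 69 reads where it was on. In 5-Htt+/- libraries these were 55, 49, 50 and 64 reads in controls, 55, 36 and 33 in SU, and 52 and 74 in SA. The log2 fold change was 6.29 (95% interval 3.25 to 10.2, adjusted p = 0.589 from edgeR). When only the 16 libraries were fitted, Gm15578 was the single gene called (adjusted p = 0.0319). Its reads were nearly those of Gm42943 in the same SU libraries (45, 65, 39, 76 and 57), a neighbouring model that was on in all 16 libraries. Negr1 did not pass (log2 fold change 0.034, 95% interval -0.13 to 0.20), and its sign turned in 3 of the alternatives given in the closing section.

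**Figure D3:**
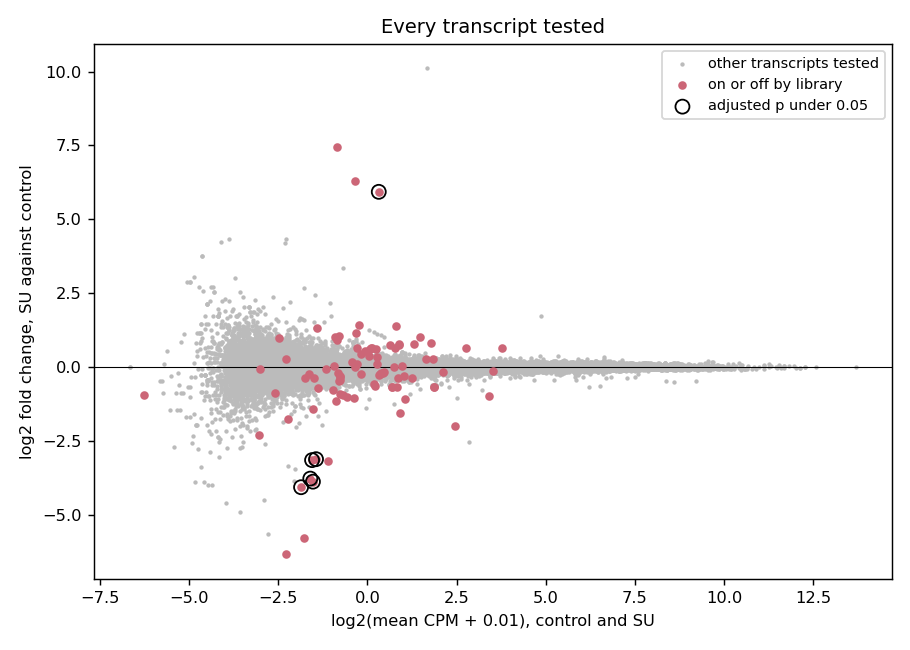
Log2 fold change of SU against control (vertical axis) by mean level (horizontal axis, log2 of CPM + 0.01) for every transcript tested; red points are transcripts that are on or off by library and circles mark an adjusted p below 0.05. All 6 circled transcripts are red.

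Outside such transcripts the hippocampal transcriptomes differed little among genes of at least 1 CPM. Below that level lay Bsx (log2 fold change 2.29, adjusted p = 0.181 from edgeR) and Mir150 (2.38), which were not called. They had 0 to 4 reads in controls and 1 to 13 in SU, near the limit of detection. Both lay outside the rule for named genes. Of 20023 genes of at least 1 CPM, 435 had an unadjusted p below 0.05 (2.17%), 184 higher and 251 lower. Over all genes tested the count was 1051 (3.37%), with 495 higher (1.59%) and 556 lower (1.78%). Not 1 of the genes tested (0%) had all SU libraries on one side of all controls. Among genes of at least 1 CPM the log2 fold change had a median size of 0.053, a 95th percentile of 0.20 and a median SE of 0.082. The 95% interval lay within 1.5-fold in either direction for 19251 of these genes (96.1%).

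The 20 genes of at least 1 CPM with the smallest p included Gm10801 and Gm26870. None of the other 18 was called, and 17 of them are described here, 10 with higher and 7 with lower means in SU. The smallest p among them belonged to Plb1, a phospholipase that releases fatty acids from membrane lipids. Its level was 1.16, 1.43 and 1.67 CPM (lowest, median and highest) in controls and 1.44, 2.04 and 2.76 CPM in SU, with all 8 SU libraries above the control median and 5 above the highest control (log2 fold change 0.45, 95% interval 0.21 to 0.70, adjusted p = 0.695 from edgeR). Mcmbp, a partner of the replicative MCM helicase, ranged from 21.2 to 24.3 CPM in controls and from 22.8 to 27.6 in SU, with 6 SU libraries above the highest control (log2 fold change 0.16). Cep97, which restrains cilium formation at the centriole, had 19.4 to 28.6 CPM in controls and 27.5 to 31.5 in SU (0.21). Hcfc2, a transcriptional cofactor, had 34.4 to 44.2 and 42.3 to 48.5 CPM (0.17). Ddo, the oxidase of D-aspartate, an agonist of NMDA receptors, had 4.98 to 6.51 CPM in controls and 5.82 to 7.45 in SU (0.24). In each of these genes the groups overlapped.

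Among the 7 with lower means, Fabp7, a fatty acid binding protein of astrocytes and neural progenitors, had 7.31, 8.61 and 12.7 CPM in controls and 5.46, 7.30 and 9.17 CPM in SU (lowest, median, highest), with 4 SU libraries below the lowest control (log2 fold change -0.33, 95% interval -0.54 to -0.13, adjusted p = 0.998 from edgeR). Ddx41, an RNA helicase, ranged from 21.1 to 27.7 CPM in controls and from 18.4 to 22.4 CPM in SU, with 7 SU libraries below the lowest control (-0.22). Espl1, the protease separase that releases sister chromatids, went from a mean of 1.49 ± 0.191 to 1.07 ± 0.291 CPM (-0.48). Nme4, a mitochondrial nucleoside diphosphate kinase, had 1.86 ± 0.372 and 1.34 ± 0.233 CPM (-0.44). Scd4, of the stearoyl-CoA desaturase family, had 12.1 ± 2.06 and 9.64 ± 0.992 CPM (-0.32). Drc1, of the regulatory complex of motile cilia, had 9.83 ± 1.47 and 8.19 ± 0.978 CPM (-0.25). Cdkn1a, the cell cycle inhibitor p21, is described with the glucocorticoid genes. The remaining 5 with higher means, Gm15506, Gm11638, Gm37435, Gm43298 and Gm16577, are non-coding or unclassified models with log2 fold changes between 0.24 and 0.49.

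**Figure D4:**
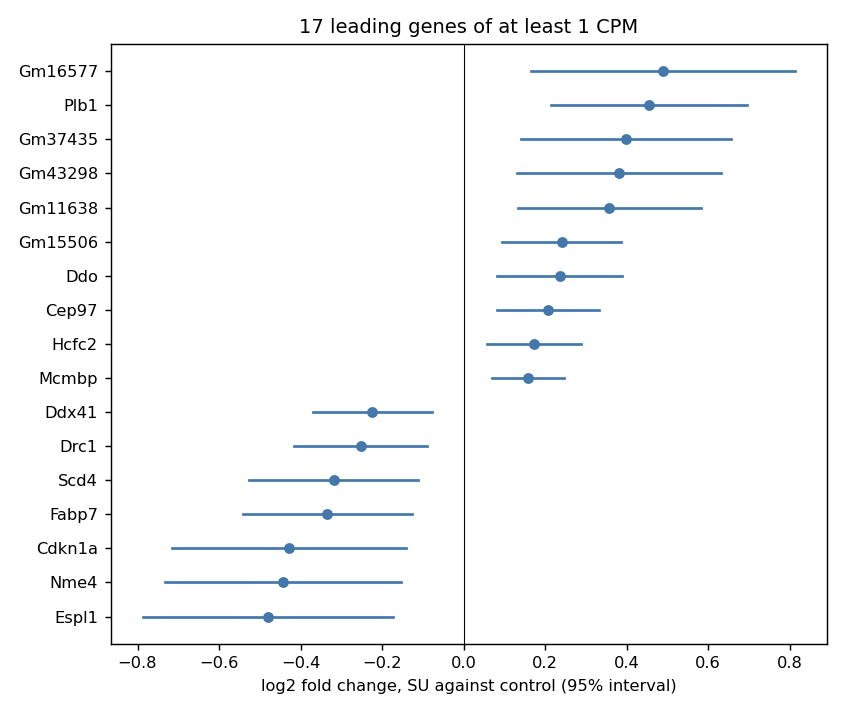
Log2 fold change of SU against control with its 95% interval (horizontal axis) for the 17 described genes of at least 1 CPM with the smallest p, apart from Gm10801 and Gm26870. Intervals exclude 0 for each, from Espl1 at -0.48 to Gm16577 at 0.49, while no adjusted p passed. The genes were chosen by small p and the intervals derive from the same test, so this exclusion followed from the choice.

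Genes of glucocorticoid signalling were examined next, since the offspring differed in prenatal stress. Of 23 such genes tested, 18 had a lower and 5 a higher mean in SU, with a median log2 fold change of -0.05 (median of all genes tested -0.0061), and none was called. The median was -0.10 without control 6 and -0.038 without control 1. Cdkn1a was the only member with an unadjusted p below 0.05. It had 3.30 to 6.09 CPM in controls and 2.62 to 4.20 CPM in SU, with all 8 SU libraries below the control median and 5 below the lowest control (log2 fold change -0.43, 95% interval -0.72 to -0.14, adjusted p = 0.998 from edgeR). Hif3a, a hypoxia-inducible factor subunit, had 7.94 ± 2.35 and 5.78 ± 1.75 CPM (-0.42), and Sgk1, a kinase induced by glucocorticoids, 58.6 ± 8.17 and 51.9 ± 7.74 CPM (-0.17). The receptors and regulators themselves were close to the controls: Nr3c1 had a log2 fold change of 0.12 (95% interval -0.043 to 0.28), Nr3c2 of 0.011 (-0.11 to 0.13), Fkbp5, the receptor co-chaperone, of 0.013 (-0.11 to 0.13), and Crhr1, the receptor of corticotropin-releasing hormone, of -0.031 (-0.15 to 0.09). Bdnf (0.017, interval -0.18 to 0.21) and the serotonin receptor gene Htr1a (-0.016, interval -0.16 to 0.13) were equally near 0. The signs of Nr3c2, Fkbp5, Crhr1, Bdnf and Htr1a turned in some alternatives given in the closing section. Of 20 genes of serotonin receptors and handling, none was called and none had an unadjusted p below 0.05.

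Immediate early genes, which neurons switch on with activity, had a lower mean in SU in 16 of 20 cases (median log2 fold change -0.07), with none called. This median was -0.012 without control 5 and -0.12 without SU 6. Nptx2, a pentraxin that gathers AMPA receptors, had an unadjusted p below 0.05 (19.5 ± 4.98 and 15.8 ± 2.35 CPM, log2 fold change -0.30), and Fosb had 5.15 ± 1.03 and 4.36 ± 0.747 CPM (-0.27). Of 18 cholesterol synthesis genes 17 had a lower mean (median -0.08), with Insig1, the sterol sensor that holds back synthesis, at 43.6 ± 5.52 and 38.8 ± 3.75 CPM (-0.17). All 24 cytosolic ribosomal protein genes (median -0.06) and 24 of 26 nuclear genes of oxidative phosphorylation (median -0.05) had lower means in SU, and none of them had an unadjusted p below 0.05. Without control 7, the library that lies farthest out on the first principal component at -47.6, these last medians were -0.022 and -0.0072. The neuropeptide genes gave 2 of 22 with a higher and 1 with a lower value at an unadjusted p below 0.05, where 1.59% and 1.78% of all genes tested did so. The lower one was Penk, the enkephalin precursor (log2 fold change -0.35), which control 4 held at 43.0 CPM and whose value was -0.0027 without control 4. The higher ones were Npy2r, a receptor of neuropeptide Y (0.17), and Oxt, oxytocin, which was near the limit of detection (0.0589 ± 0.0647 and 0.197 ± 0.180 CPM).

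Of 12 marker genes of dentate granule cells, 11 had a higher mean in SU, with a median log2 fold change of 0.11, and none was called or had an unadjusted p below 0.05. Trpc6 had 24.2 ± 5.23 and 28.7 ± 4.18 CPM (0.24), and Glis3 16.2 ± 2.11 and 18.8 ± 2.37 CPM (0.22). The mean log2 level of the list ran from 4.88 to 5.55 in controls and from 5.18 to 5.73 in SU, with control 3 the lowest. The median was 0.072 without control 3 and 0.0028 without controls 3, 4 and 6. In the list of adult neurogenesis, Neurod1, a transcription factor of young granule neurons, had 14.8 to 21.5 CPM in controls and 18.6 to 25.2 CPM in SU (0.22, unadjusted p = 0.0104 from edgeR, adjusted p = 0.998), and Neurog2, which acts before it, a value of -0.45 (adjusted p = 0.998 from edgeR). 6 of 9 CA2 pyramidal cell markers had lower means (median -0.12), among them Pcp4 (-0.15) and Necab2 (-0.12), and the median was -0.060 without control 8. 14 of 15 choroid plexus markers had lower means (median -0.14), a value that moved between -1.004 and 0.40 as single libraries were left out. Markers of neocortex and striatum, tissue next to the hippocampus, were highest in control 4 at a mean log2 level of 3.51, where the other 15 libraries lay between 2.55 and 2.93. Adora2a, a striatal adenosine receptor, had a log2 fold change of -0.46 that was -0.09 without control 4. The part of these markers in the difference of Penk was not tested beyond leaving out that library.

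**Figure D5:**
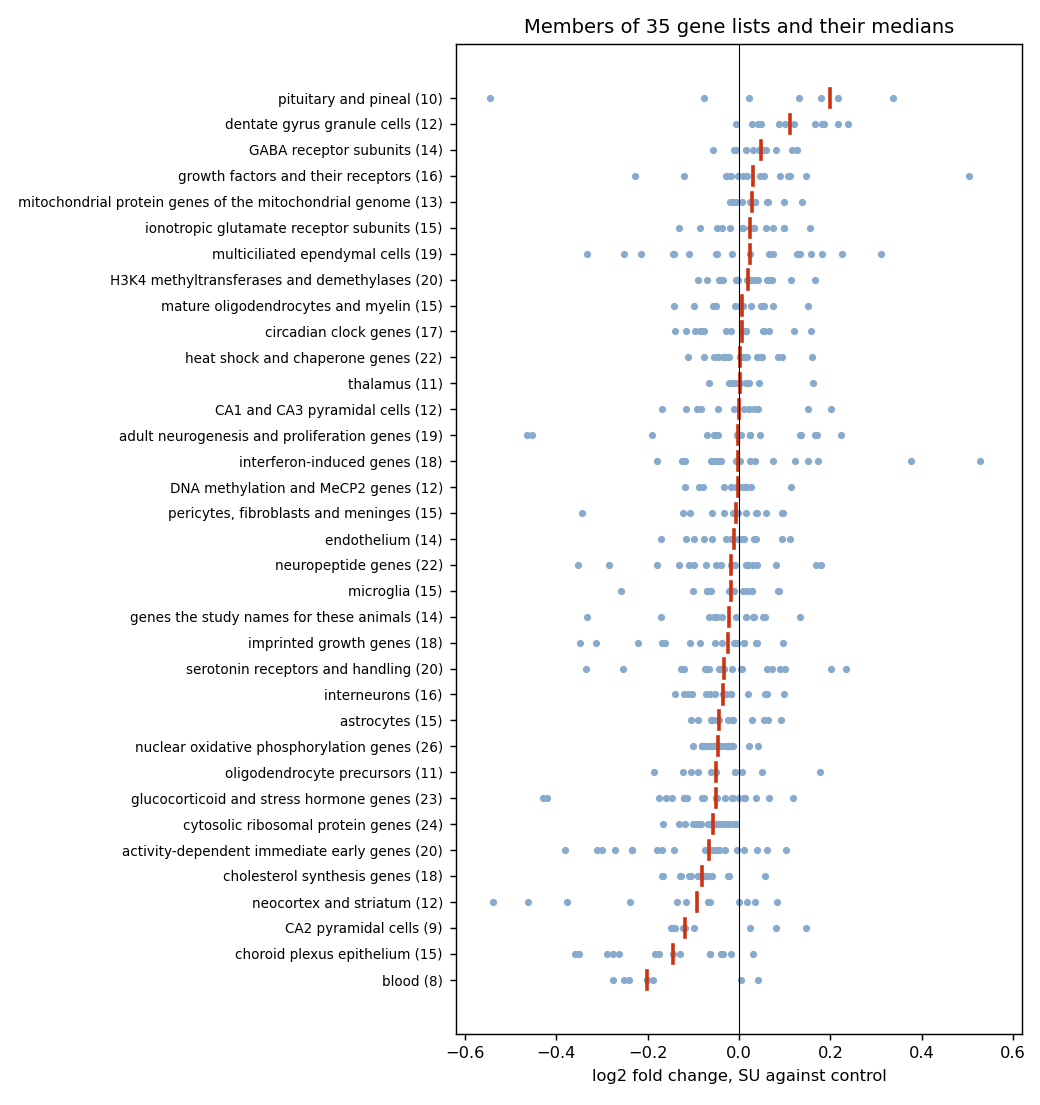
Log2 fold change of SU against control (horizontal axis) for members of 35 gene lists (points; list size in brackets) with the list median (red bar), ordered by median; 7 members beyond 0.6 are not drawn. Medians lie between -0.20 for blood genes and 0.20 for pituitary and pineal genes.

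Of the 36 lists, 35 held no called gene. The exception was a list of 4 of the chromosome 8 models described above, drawn up with earlier results of these libraries known and thus no independent evidence. Single members with an unadjusted p below 0.05 stood among 15 glutamate receptor subunits (Grin2a, 0.16), 20 histone H3K4 enzymes (Kdm5a, 0.17) and 11 oligodendrocyte precursor genes (Gpr17, -0.19). Further single members stood among 15 microglia genes (Aif1, -0.26), 15 of pericytes and meninges (Kcnj8, -0.34) and 18 imprinted genes (H19, 1.11). Of 19 genes of ciliated ependymal cells there were 2, Cfap45 (-0.22) and Drc1, described above. Over all genes tested the shares were 1.59% higher and 1.78% lower. H19 was near the limit of detection, with 0 to 4 reads in controls and 0 to 13 in SU, and its value was 0.61 without SU 2. Another list holds genes that the study names, some for expression and some for a histone mark only. Part of them were named for animals of the other genotype. The study adjusted p only over its nominally significant interaction genes. It describes higher Mapk15 in prenatally stressed wildtype offspring, and higher Kif14 in those with intact social behaviour. For SU wildtype animals against controls it also reports altered Lgals1-ps2, Eef1ece2 and Gm8203. Of the 16 genes in this list 14 were tested and none was called, with log2 fold changes from -0.33 for Mapk15 to 0.13 for Otop2. Eef1ece2 and Pwwp3a were not in the counts under these names. Median Kif14 was 4.84 CPM in controls and 4.80 CPM in SU. Median Lgals1-ps2 was 0.491 CPM in controls and 0.558 CPM in SU, and median Gm8203 40.9 and 40.7 CPM. As single libraries were left out, Mapk15 ran from -0.46 to -0.13 (without control 4) and Otop2 from 0.049 (without SU 7) to 0.23 (without SU 6).

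Whether the SU effect differed between the genotypes was tested as the difference of the effects in 5-Htt+/+ and 5-Htt+/-. No gene was called by edgeR's quasi-likelihood test (0%), 1764 had an unadjusted p below 0.05 (5.65%), and DESeq2 called 1, Gm26870. The 5 genes of at least 1 CPM with the smallest p of the difference were Gm10801, Mir6240, AA474408, Ccno and Fabp7, each with an adjusted p of 0.469. Fabp7 was lower in SU than in control 5-Htt+/+ animals, while 5-Htt+/- controls had 7.05 ± 0.612 CPM (n = 7) and 5-Htt+/- SU animals 8.44 ± 1.16 CPM (n = 9), which gave a difference of -0.60 on the log2 scale (95% interval -0.90 to -0.31). Ccno, a gene of multiciliated cells, gave a difference of 0.68 (0.35 to 1.02). The difference was -1.76 for Mir6240 (-2.57 to -0.96) and -1.11 for AA474408 (-1.64 to -0.58). Plb1 gave 0.66 (0.32 to 1.01), with 1.67 ± 0.243 CPM in 5-Htt+/- controls and 1.47 ± 0.214 CPM in 5-Htt+/- SU animals.

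SU and SA 5-Htt+/+ animals shared the prenatal stress and differed in social behaviour. No gene was called between them by edgeR (0%), and 1218 had an unadjusted p below 0.05 (3.9%). Plb1 was 1.49 ± 0.248 CPM in SA animals, lower than in SU by 0.39 on the log2 scale, and Cfap45 gave -0.44 (SU minus SA), without either passing adjustment. Because these comparisons share the SU libraries with the comparison against controls, their values are given side by side only.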

How the data were processed

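RNA-seq was run on hippocampal RNA as single-end reads. The table deposited by the authors holds integer counts of reads for 48440 genes, without further scaling, with STAR, HTSeq, DESeq2 and GRCm38.p5 named in the submitters' processing notes. The study's methods also name a transcript quantifier, and no strand setting is given in the sources used here, so overlapping antisense reads cannot be separated. The 9 annotation columns were not tested and all sample columns were used.

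The filter kept genes that reached 5 reads in 3 or more of the 48 libraries. Libraries were scaled by upper quartile factors, and edgeR (version 4.0.16, R 4.3.3) fitted 1 mean per group of 6 by its quasi-likelihood test in its current form, with Benjamini-Hochberg adjustment over all genes tested. This form, which is not the default of the installed version, was taken after both forms had been run, with 6 genes called by it and 1 by the default. CPM values use the scaled library sizes, and mean log2 levels of lists a prior count of 2. Fold changes use a smaller prior count and were damped little. The log2 fold change of a transcript without control reads therefore stayed large, such as 10.1 for Gm26870. SE and 95% intervals derive from the F statistic. Intervals are centred on the fold change before its smaller prior count is applied, not on the printed fold change. For 4930435N07Rik these were -4.30 and -4.06. Intervals and floors cover counting and library error only as far as the replicates show it. Alternatives covered the test (DESeq2 version 1.42.0 among them), scaling, filter, covariates and libraries left out. The script was tested on simulated data. Named genes were all called genes, the 20 of smallest p and at least 1 CPM, up to 2 per list, a fixed set of stress and serotonin genes, and the 5 of smallest p for the genotype difference. 1 gene that this rule names is not reported here. The members and gene lists were chosen with earlier results of these data known. All 56 pairs within the 5-Htt+/+ control and SU groups differed beyond counting noise (mean chi-square per gene at least 4.49); other pairs were not compared. Labels do not say that replicate numbers mark litters. Library replicates were separate animals.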

Additional observations from a re-analysis of the deposited data

Results flagged for a closer look

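Among 144 sets of 8 values looked at, a library far from the other 7 was found 13 times. The rule flags about 1 in 20 sets by chance if values are normally distributed. Some sets hold counts near 0 or transcripts on or off by library, and the sets share libraries. The 13 can therefore not be read against that rate. Control 7 stood apart on the first principal component at -47.6 and for Bdnf, where it was the lowest at 21.0 CPM. Control 4 stood apart for Penk (43.0 CPM) and Adora2a (3.41 CPM). Control 2 had the highest Oxt of its group at 0.189 CPM, and control 8 that of Prl (0.570 CPM) and Gh (1.10 CPM). Among SU libraries, SU 2 stood apart for Gm44801 (0.116 CPM) and n-R5s95 (0.0289 CPM, 1 read), SU 3 for Bdnf (37.6 CPM), SU 5 for Prl (6.06 CPM), and SU 6 for Gm26870 (36.6 CPM) and Gm16577 (2.70 CPM).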

How the results depend on the processing

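The number of called genes, 6, moved with several settings. It was 1 with edgeR's likelihood ratio test, with its earlier quasi-likelihood form and with only the 16 libraries. It was also 1 with SU 3 and 6 or with controls 3, 4 and 6 left out together. The gene called was 4930435N07Rik, except with only the 16 libraries, where it was Gm15578. With controls 3, 4 and 6 left out together, Gm44797 and Gm44800 fell below the filter and were not tested. The number was 3 with robust estimation, with DESeq2 and with a choroid plexus term, and 2 with only the 24 libraries labelled 5-Htt+/+. It was 0 with a filter of 10 reads in 8 or more libraries. Each of the 6 reached 10 reads in fewer libraries than that, so none was tested under this filter. It was also 0 without the libraries of choroid plexus level above 2. There 4930435N07Rik, Gm44797 and Gm44800 fell below the filter and were not tested. Gm44801, Gm44799 and Gm10801 were tested there and not called. Leaving out single libraries gave 1 to 7 calls, the lowest without control 4 or control 6. The replicate block gave 4 calls; same-numbered controls and SU libraries had correlations of -0.176 to 0.154 and did not pair. 1632 genes had an unadjusted p below 0.05 without a filter, 688 with the stricter filter and 2327 without controls 3, 4 and 6, against 862 to 1414 as single libraries were left out. The genotype difference gave 1 call with DESeq2 and 0 to 2 as single libraries were left out (2 without 5-Htt+/- SU 3). The median of the circadian clock list was -0.0488, and that of the chromosome 8 list -2.34, without controls 3, 4 and 6. Signs of log2 fold changes turned as follows. Without SU 3 and 6, Gm10801 turned to -0.0755 and Bdnf to -0.0399. Without controls 3, 4 and 6, Nr3c2 turned to -0.0267, Fkbp5 to -0.0680, Crhr1 to 0.0315 and Otop2 to -0.0112. Without libraries rich in choroid plexus, Mapk15 turned to 0.0103, Fam155a to -0.00666 and Nr3c2 to -0.0294. With a first principal component term Negr1 turned to -0.0308, Bdnf to -0.0506 and Htr1a to 0.00576, and without the 6 libraries lowest on that component they turned to -0.0174, -0.0435 and 0.0252. Htr1a also turned, to 0.00607, with a term for the presence of Snord116 reads. As single libraries were left out, Negr1 ran from -0.0180 to 0.0772, Nr3c2 from -0.0173 to 0.0340, Fkbp5 from -0.0172 to 0.0485, Crhr1 from -0.0526 to 0.00384, Bdnf from -0.0443 to 0.0558 and Htr1a from -0.0391 to 0.0246. The difference of the mitochondrial share ran from -0.0188 to 0.195 percentage points as single libraries were left out. The cause was not tested. The earlier quasi-likelihood form and the joint leave-outs were chosen after seeing the data.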

Other observations

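Pituitary hormone transcripts were found at low level in some libraries. Prl, prolactin, had 0.114 ± 0.196 CPM in controls and 1.11 ± 2.12 CPM in SU (SD, n = 8 each), and Gh, growth hormone, 0.170 ± 0.379 and 0.784 ± 1.33 CPM. Neither passed the test (unadjusted p = 0.0895 and 0.120 from edgeR). The 5 red cell genes of at least 1 CPM in the blood list, among them Hbb-bt (46.6 ± 13.8 and 38.4 ± 7.33 CPM), had lower means in SU with none called.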
